A study of Mus musculus with 6 samples.

Results

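The genes described are 8 members of the TALE homeobox class that act as cofactors of Hox proteins or are close relatives of such cofactors: Meis1, Meis2, Meis3, Pbx2, Pbx3, Pbx4, Pknox1 and Tgif1. They were taken by gene symbol from the 24063 symbols counted in these files. RNA was sequenced from LSK cells, the lineage-negative, Sca-1 and c-Kit positive fraction of bone marrow that holds haematopoietic stem and early progenitor cells. The 3 knockout libraries, labelled Asxl2-/-, came from C57BL/6 mice carrying Mx1-cre whose Asxl2 alleles were floxed around exon 11. The 3 control libraries came from Asxl2 wild-type C57BL/6 mice that also carried Mx1-cre. Both groups had received pIpC, a synthetic RNA that induces interferon and, through it, the Mx1 promoter that drives Cre. The study states that the cells were taken 4 weeks later. Mx1-cre is active in any interferon-responsive cell and is not restricted to blood. The age of these mice is not given in the sources used here.

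Proteins of the TALE class carry a homeodomain with a loop of 3 extra residues. PBX and MEIS proteins bind DNA together with each other and with HOX proteins, and MEIS and PKNOX proteins bind PBX and help to hold it in the nucleus. In blood, Meis1 is known for its high expression in stem cells, for its need in stem cell maintenance and for cooperating with Hoxa9 in leukaemia. Tgif1 is a repressor that competes with MEIS proteins for similar DNA sites and that binds Smad proteins to damp TGF-beta signalling.

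The sequence at the start of Meis1 is shown because Meis1 was the member with the largest change at a high level, and 3 starts of Tgif1 are shown because its starts could be counted apart in 3 libraries. Each window comes from RefSeq on the GRCm38.p6 build, lies on the minus strand, runs 5′ to 3′ and ends 30 bases after the start site. Capitals mark a match to TGACAG, the core of the MEIS and TGIF site, or to TGATTNAT, the joint PBX and HOX site. The Tgif1 NM_009372 window is shorter because it was ended at the neighbouring upstream first exon.
Meis1 NM_001193271, chr11:19018940-19019219: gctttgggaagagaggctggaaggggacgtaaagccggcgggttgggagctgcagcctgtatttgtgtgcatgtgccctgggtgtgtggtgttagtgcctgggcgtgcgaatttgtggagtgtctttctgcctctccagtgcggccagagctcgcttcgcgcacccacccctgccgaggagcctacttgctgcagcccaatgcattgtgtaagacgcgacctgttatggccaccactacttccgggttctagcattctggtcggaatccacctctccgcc
Tgif1 NM_001164075, chr17:70851705-70851984: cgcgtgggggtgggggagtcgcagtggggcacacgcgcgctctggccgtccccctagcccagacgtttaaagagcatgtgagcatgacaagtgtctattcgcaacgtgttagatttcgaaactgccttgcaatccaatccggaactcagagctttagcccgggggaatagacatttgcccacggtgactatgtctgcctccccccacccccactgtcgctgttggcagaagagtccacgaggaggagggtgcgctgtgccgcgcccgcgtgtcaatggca
Tgif1 NM_009372, chr17:70851181-70851309: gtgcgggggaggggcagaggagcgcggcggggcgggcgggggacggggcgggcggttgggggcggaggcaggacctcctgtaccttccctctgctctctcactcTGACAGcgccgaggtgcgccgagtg
Tgif1 NM_001164076, chr17:70849761-70850040: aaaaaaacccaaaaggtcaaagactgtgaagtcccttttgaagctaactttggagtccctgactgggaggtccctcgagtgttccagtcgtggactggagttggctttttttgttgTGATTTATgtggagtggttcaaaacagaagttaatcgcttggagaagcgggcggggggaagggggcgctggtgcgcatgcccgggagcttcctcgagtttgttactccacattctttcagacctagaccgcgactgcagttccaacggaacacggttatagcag

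Promoter entries, which span 250 bases before to 50 bases after a start, were matched for 6 of the 8 members. Both strands were searched for TGACAG, for TGATTNAT and for the longer joint PBX and MEIS site, which itself contains TGACAG. The single entries of Meis1, Meis2, Meis3, Pbx2 and Pbx4 held none of these letters. Among the 5 entries of Tgif1, TGACAG stood at position 6 after the NM_009372 start and at position 39 after the NM_001164077 start, and TGATTTAT began at position -134 relative to the NM_001164076 start. Of 32851 promoter entries, 19.2% held TGACAG, 3.22% held TGATTNAT and 0.222% held the joint PBX and MEIS site. A match describes letters only, and binding was not measured in these files.

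Counts assigned to genes totalled 25528540 to 29136012 in the 3 libraries deposited as gene counts (Asxl2-/- replicates 1 and 3, control replicate 2) and 53147729 to 55032075 in the 3 deposited as exon counts (Asxl2-/- replicate 2, control replicates 1 and 3), where a spliced read can be counted in several exons. The kind of file was therefore a term in the fits unless stated otherwise. With that term, a fit without Asxl2-/- replicate 2 or without control replicate 2 compares the groups only in the other kind of file. There, a group has a single library. Exon 11 of Asxl2 took 0.583% of its exon counts in Asxl2-/- replicate 2 and 10.3% and 11.99% in control replicates 1 and 3, while the counts of the whole transcript did not pass the test (log2 fold change 0.11, edgeR adjusted p = 0.469). Kit and Ly6a, which encode the positive markers of the gate, were counted in every library, and Ly6a ranged from 40.5 to 259.8 CPM (counts per 1000000 of the scaled library total) among the controls against 52.6 to 69.1 CPM in the knockouts. Xist rose by 5.73 on the log2 scale and 4 Y-linked genes fell, so the groups differed in sex and the effects of sex and genotype cannot be told apart. Across 14145 genes that passed the filter on low counts, 331 passed an adjusted p of 0.05 in edgeR, which is 2.34%, with 288 higher and 43 lower in Asxl2-/- cells. That count moved with the libraries included, to 16, 659 and 96 without Asxl2-/- replicates 1, 2 and 3 and to 1312, 124 and 9 without control replicates 1, 2 and 3.

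Of the 8 members, 7 passed the filter on low counts and 0 passed the adjusted threshold in edgeR. The 7 fold changes were positive, with a median of 0.29 on the log2 scale against 0.0005 over all tested genes. Meis3 reached the level of the filter in the 3 Asxl2-/- libraries and in 0 controls, so its sign was fixed by the filter and these figures describe the tested members only. At an unadjusted p under 0.05 there were 2 members, Meis1 and Meis3, against 27.7% of all tested genes. The CPM ranges of the groups did not overlap for Meis1, Meis3, Pbx2 and Pbx3, each higher in Asxl2-/- cells. That is 3 of 6 without Meis3, where 15.4% of all tested genes had non-overlapping ranges with Asxl2-/- above control and 24.8% in either direction. DESeq2 in place of edgeR called 2 members, Meis1 and Meis3, where it called 16.5% of all tested genes. In edgeR, 2 members passed without control replicate 1, where 9.33% of all tested genes did, and 1 without Asxl2-/- replicate 2, where 4.67% did.

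**Figure D1:**
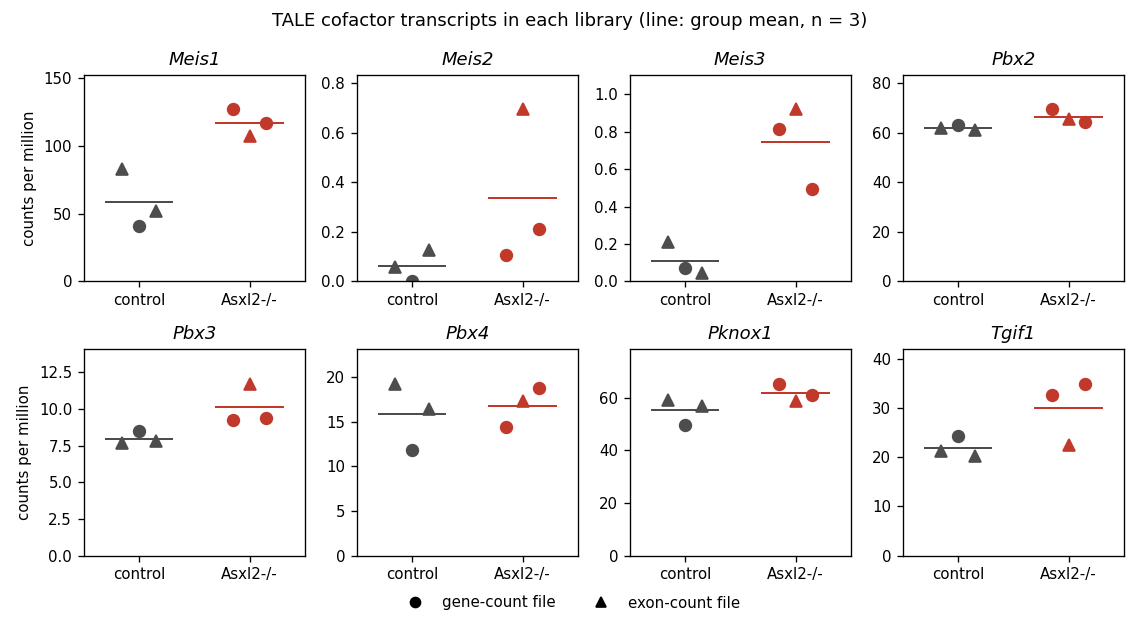
CPM of each member (y axis, from 0) in the 3 control and 3 Asxl2-/- libraries, with circles for gene-count files, triangles for exon-count files and a line at the group mean. For Meis1 the Asxl2-/- libraries sit between 107.3 and 127.1 CPM and the controls between 40.5 and 83.1, whereas the groups overlap for Pbx4, Pknox1 and Tgif1. For Tgif1 the overlap is between kinds of file, and within each kind the Asxl2-/- libraries lie above the controls.

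Meis1 (NM_001193271, mm10 chr11:18880428-19018969, 13 exons with 3441 bases) was the MEIS gene with by far the most counts. It measured 127.1, 107.3 and 116.6 CPM in Asxl2-/- replicates 1, 2 and 3. The controls measured 83.1, 40.5 and 51.6 CPM in the same order. Every Asxl2-/- library lay above every control, and control replicate 1 lay closest to the knockouts. With the file kind removed, log2 CPM in controls was 5.76 ± 0.43 (SD, n = 3), and the Asxl2-/- value was 6.91 ± 0.26 (SD, n = 3). The log2 fold change of 1.12 (SE 0.28) missed the threshold of the edgeR test (adjusted p = 0.0818).

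The size of the Meis1 difference varied with the libraries compared. In gene-count files alone the ratio of Asxl2-/- to control CPM was 3.01 (95% exact interval 2.83 to 3.20), and in exon-count files alone it was 1.58 (1.52 to 1.63). These intervals cover counting error only. In exon-count files a spliced read can count in several exons, so the interval there is too narrow even for that. Each kind of file holds a single library of one group, so these ratios have no replicate test. Without control replicate 1 the log2 fold change was 1.35 (edgeR adjusted p = 0.0339). It was 1.59 without Asxl2-/- replicate 2, which compares the groups in gene-count files alone. Without control replicate 2, which compares them in exon-count files alone, it was 0.67. The fits without Asxl2-/- replicate 2 and without control replicate 2 rest on a single control and a single Asxl2-/- library, respectively. The direction was the same in each of these fits, while the side of the threshold depended on single libraries.

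The exon counts give Meis1 along its length. In Asxl2-/- replicate 2 each of the 13 exons had more CPM than in either control exon-count library, by 1.11 to 1.58 times over control replicate 1 and by 1.83 to 2.49 times over control replicate 3. Exon 6, counted from the 5′ end, had a ratio of 1.58 over control replicate 1, and exon 12 had the lowest ratio over both controls. Exon 12, of 95 bases, is the exon that distinguishes NM_001193271 from the other listed Meis1 transcript, NM_010789. It took 4.50% of Meis1 exon counts in Asxl2-/- replicate 2, 5.22% in control replicate 1 and 5.11% in control replicate 3. With 1 knockout library, these shares were not tested between conditions.

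**Figure D2:**
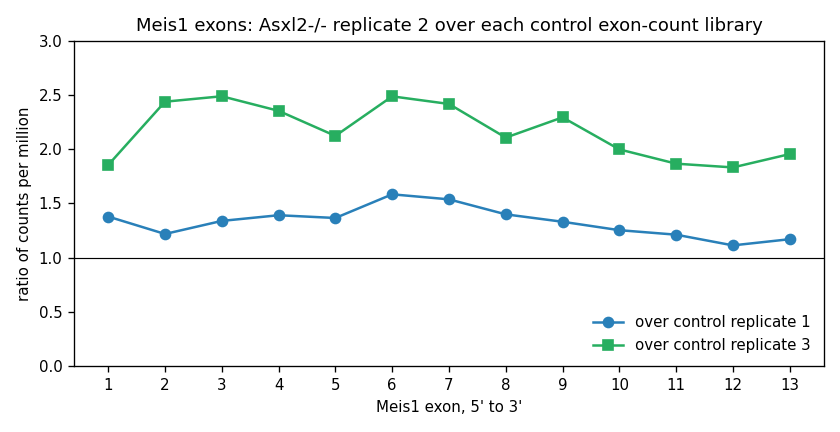
Ratio of CPM in Asxl2-/- replicate 2 to control replicate 1 (circles) and to control replicate 3 (squares), y axis from 0, for Meis1 exons 1 to 13 ordered 5′ to 3′ on the x axis. Every ratio lies above the line at 1, and the ratios over control replicate 3 are the higher ones at each exon.

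Markers of several cell types moved along with Meis1 in these sorted cells. Of 11 markers of long-term stem cells, 3 rose (Vwf, Slamf1 and Ctnnal1) and 0 fell, and their summed level was 579.7 to 700.6 CPM in Asxl2-/- libraries and 265.5 to 413.5 CPM in controls. Of 10 tested megakaryocyte markers, 4 rose (Vwf, Ppbp, Gp5 and Pf4), with sums of 332.4 to 838.2 CPM against 169.4 to 364.3 CPM. Of 10 B-lymphoid markers, 9 rose and the exception was Cd79b (log2 fold change 1.05, adjusted p = 0.0507), with sums of 210.3 to 248.7 CPM against 47.5 to 71.5 CPM. Of 9 tested markers of T and NK cells, Thy1 rose and 0 fell, with Cd8a lower at an unadjusted p under 0.05 (log2 fold change -1.08, adjusted p = 0.0942) and sums of 36.6 to 51.3 CPM against 27.4 to 40.6 CPM. Erythroid markers summed to 813.1 to 1583 CPM against 2206 to 3362 CPM, with 0 of 11 past the threshold in edgeR, 6 lower at an unadjusted p under 0.05 and 5 lower by DESeq2. Myeloid markers overlapped, at 2685 to 6888 CPM and 2713 to 8106 CPM, with 0 of 11 past the threshold in edgeR, 3 higher at an unadjusted p under 0.05 and 3 higher by DESeq2. Endothelial markers summed to 411.1 to 724.7 CPM against 303.4 to 453.8 CPM. Of 9 tested, Vwf was past the threshold in edgeR, 4 were higher at an unadjusted p under 0.05 and 4 were higher by DESeq2. Stromal markers summed to 189.6 to 404.6 CPM against 106.5 to 254.9 CPM, with 0 of 10 past the threshold in edgeR and 0 at an unadjusted p under 0.05. The 10 stromal fold changes were nevertheless positive, with a median of 1.19 on the log2 scale. Of these markers, 3 reached the level of the filter in all Asxl2-/- libraries and only 1 or 2 controls, so the filter set part of that. Vwf stands on 3 of these lists and measured 305.9 CPM in Asxl2-/- replicate 2. Over all tested genes, edgeR called 2.34% and DESeq2 16.5% at the adjusted threshold. An unadjusted p under 0.05 in edgeR was reached by 27.7%. Without Asxl2-/- replicate 1 or control replicate 3, 0 stem cell, megakaryocyte or B-lymphoid markers passed the threshold in edgeR, and without Asxl2-/- replicate 3 or control replicate 2 at most 1, 2 and 3 did, while DESeq2 on all libraries called 6, 8 and 10. Without Asxl2-/- replicate 3, edgeR called 2 erythroid markers lower and 3 myeloid markers higher. In 5 of the 6 edgeR fits without a library, 0 T and NK markers rose past the threshold, while DESeq2 called 1 higher and 1 lower. Ncr1 (NK), Gp6 (megakaryocyte) and Cldn5 (endothelial) were at 0 in at least 1 library, and the other cell type markers counted were above 0 in all 6. In bulk RNA, more cells of a type and more RNA per cell cannot be told apart, and the part of cell composition in the Meis1 result was not tested.

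Meis3 (NM_008627, chr7:16175325-16186503), a MEIS gene with the same partners as Meis1, was near the limit of detection. Its counts were 23, 49 and 14 in Asxl2-/- replicates 1 to 3 and 11, 2 and 2 in the controls. In CPM these were 0.816, 0.921 and 0.494 against 0.211, 0.0695 and 0.0422. The groups did not overlap. The limit set by 3 counts was 0.0564 to 0.107 CPM per library, and control replicates 2 and 3 were each below theirs. The log2 fold change was 2.93 (SE 0.67, edgeR adjusted p = 0.074), and the ratio of CPM was 9.42 (95% exact interval 2.43 to 80.7) among gene-count libraries and 7.05 (3.77 to 14.2) among exon-count libraries. The exon-count interval is too narrow, as a spliced read can count in several exons. Without control replicate 1 Meis3 passed the edgeR threshold (log2 fold change 3.78, adjusted p = 0.0422).

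Meis2 (NM_001159569, chr2:115861264-116064621) had 3, 37 and 6 counts in the knockouts and 3, 0 and 6 in the controls. Asxl2-/- replicate 2, an exon-count library, stood above the rest, and the other 5 libraries overlapped. Meis2 did not pass the filter on low counts. A fit without that filter put the log2 difference at 3.18 (SE 0.81, adjusted p = 0.103 by edgeR), a value that depends on how counts at 0 are treated. In exon-count files alone the ratio was 7.69 (95% exact interval 3.64 to 18.1), on 37 against 9 counts. That interval is too narrow, as a spliced read can count in several exons.

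Among the PBX genes, which encode the proteins that pair with both MEIS and HOX proteins, Pbx2 (NM_017463, chr17:34592471-34597341) was counted most evenly. It measured 69.6, 65.7 and 64.6 CPM in Asxl2-/- replicates 1, 2 and 3 and 62.1, 63.0 and 61.1 CPM in the controls. The ranges did not overlap, yet the gap was small. The log2 fold change was 0.09 (SE 0.08), not past the threshold (edgeR adjusted p = 0.476), and the separate file kinds gave 0.09 and 0.09.

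Pbx3 (NM_016768, chr2:34171457-34372045), known as a partner of Hoxa9 and Meis1 in leukaemia, was present at a lower level. It measured 9.23, 11.7 and 9.41 CPM in the knockouts and 7.66, 8.48 and 7.80 CPM in the controls. The groups did not overlap, with Asxl2-/- replicate 2 the highest. The log2 fold change was 0.37 (SE 0.16, edgeR adjusted p = 0.191). It was 0.60 in exon-count files alone and 0.14 in gene-count files alone, where the ratio of 1.10 had an exact interval of 0.943 to 1.29. Without Asxl2-/- replicate 2 (0.14) or control replicate 2 (0.61) the fit repeats these comparisons, because only a single kind of file then holds both groups. In exon-count libraries each of the 9 Pbx3 exons had more CPM in Asxl2-/- replicate 2 than in either control, by 1.13 to 2.07 times.

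Pbx4 (NM_001024954, chr8:69832704-69872292), a PBX gene best known from testis, overlapped between the groups. It measured 14.4, 17.3 and 18.8 CPM in the knockouts and 19.3, 11.8 and 16.4 CPM in the controls. The highest and the lowest values both belonged to controls, the highest to an exon-count and the lowest to a gene-count library. Among gene-count libraries the knockouts lay above the control. Among exon-count libraries the knockout lay between the controls. A log2 fold change of 0.22 (SE 0.19) was fitted (edgeR adjusted p = 0.492). Its sign turned, to -0.04, without control replicate 2, where only exon-count files still hold both groups.

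Pknox1 (NR_027493, chr17:31564773-31607693), also called Prep1, binds PBX proteins as MEIS proteins do. The transcript counted was the longest listed, a non-coding record that shares most of its counts with the coding NM_016670. It measured 65.4, 58.6 and 61.1 CPM in the knockouts and 59.2, 49.7 and 56.8 CPM in the controls, and control replicate 1 lay within the knockout range. The log2 fold change was 0.18 (SE 0.11, edgeR adjusted p = 0.307), with 0.35 in gene-count files alone and 0.02 in exon-count files alone. The fits without Asxl2-/- replicate 2 (0.35) and without control replicate 2 (0.02) repeat those comparisons, as only a single kind of file then holds both groups.

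Tgif1 (NM_001164075, chr17:70844205-70851734) measured 32.7, 22.4 and 35.0 CPM in the knockouts and 21.3, 24.2 and 20.3 CPM in the controls. Asxl2-/- replicates 1 and 3 were the highest, and Asxl2-/- replicate 2 lay inside the control range. Tgif1 had a fitted log2 fold change of 0.29 (SE 0.12) and missed the threshold (edgeR adjusted p = 0.189). It was 0.48 in gene-count files alone and 0.11 in exon-count files alone. Leaving out Asxl2-/- replicate 2 (0.48) or control replicate 2 (0.11) repeats these comparisons, because only a single kind of file then holds both groups. Counting the Tgif1 transcript with the most counts in place of the longest gave 0.27 (adjusted p = 0.222).

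**Figure D3:**
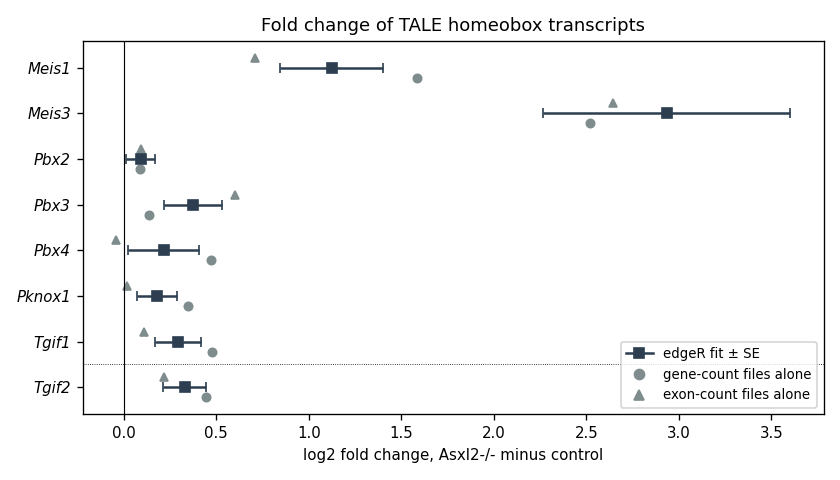
Log2 fold change, Asxl2-/- minus control (x axis), for the 7 tested members and, under the dotted line, the further TALE gene Tgif2, with squares for the edgeR fit of all 6 libraries ± SE, circles for gene-count files alone and triangles for exon-count files alone. The squares of the members lie between 0.09 for Pbx2 and 2.93 for Meis3, and that of Tgif2 at 0.33.

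Tgif1 has 5 listed transcripts that share their last exons and differ in where they start. Of these, 4 have a first exon that shares no bases with the other exons, and the start of NM_001164077 lies against a shared exon and could not be counted apart. The separate first exons held 253, 266 and 221 counts in Asxl2-/- replicate 2, control replicate 1 and control replicate 3. NM_009372, whose window with the TGACAG match is printed above, took 67.6% of them in Asxl2-/- replicate 2 (95% Wilson interval 61.6 to 73.1%). It took 71.1% in control replicate 1 (65.3 to 76.2%) and 77.4% in control replicate 3 (71.4 to 82.4%). NM_001164076, whose window holds TGATTTAT, took 20.6% in the knockout library and 18.4% and 15.4% in the controls. NM_001164075, the longest transcript, took 7.1%, 6.4% and 5.0%, and NM_001164074 took 4.7%, 4.1% and 2.3%. The order of the starts was therefore the same in all 3 libraries. The knockout interval for NM_009372 overlapped those of both controls, and a single knockout library allows no test of the condition. The first exons differ in length, from 85 to 425 bases, and the shares are not corrected for it.

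**Figure D4:**
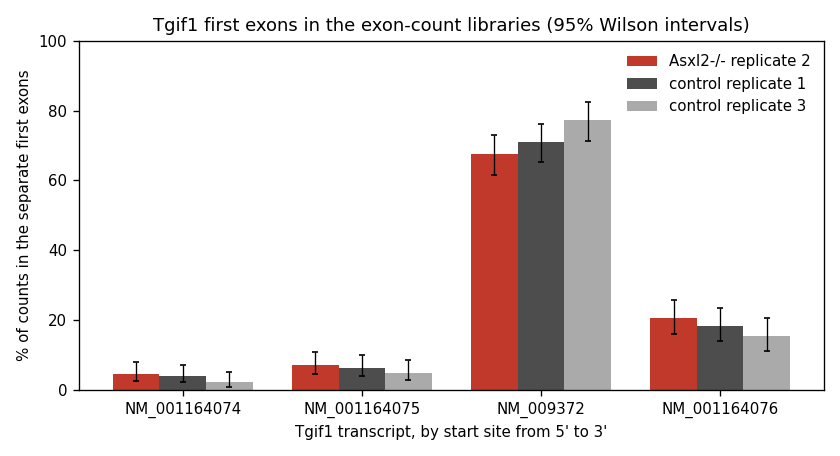
Share of the counts in the 4 separate Tgif1 first exons (y axis, percent, from 0) that fell in each, by transcript along the x axis, for Asxl2-/- replicate 2 and control replicates 1 and 3, with 95% Wilson intervals as error bars. NM_009372 takes 67.6 to 77.4% in each library and the other starts 2.3 to 20.6%.

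Levels of different genes were compared per length, as CPM per kilobase of the counted transcript and within a kind of file. In exon-count files a spliced read can count in several exons. Levels there therefore also depend on the number and length of a gene's exons, and their order is not one of transcript level alone. In the exon-count controls, Pbx2 (21.8 and 22.2) and Meis1 (15.0 and 24.2) were the highest and overlapped. Pbx4 (12.2 and 14.3), Pknox1 (12.7 and 13.3) and Tgif1 (11.8 and 12.4) followed within a narrow band in which Pbx4 overlapped the other 2. The place of Tgif1 in that band depends on the transcript counted. NM_001164075, used here, had 1109 and 962 counts over 1720 bases in control replicates 1 and 3. NM_009372 had more counts, 1281 and 1122, over fewer bases, 1634, and so a higher level. Pbx3 (2.68 and 2.73), Meis3 (0.023 and 0.115) and Meis2 (0.0115 and 0.0253) were lowest, and the last 2 overlapped. In the gene-count control the order was Pbx2 (22.5), Tgif1 (14.1), Meis1 (11.8), Pknox1 (11.1), Pbx4 (8.77), Pbx3 (2.97), Meis3 (0.0379) and Meis2 (listed at 0).

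In Asxl2-/- libraries the top of that order differed. Meis1, at 33.9 and 36.9 CPM per kilobase in the gene-count libraries and 31.2 in the exon-count library, lay above Pbx2, at 23.0, 24.8 and 23.5, in all 3 libraries. Among the controls it lay above Pbx2 in control replicate 1 and below it in the other two. In the gene-count knockouts Tgif1 (19.0 and 20.3) came next, ahead of Pknox1 (13.7 and 14.7) and Pbx4 (10.7 and 13.9), which overlapped. In the exon-count knockout Pknox1 (13.1), Tgif1 (13.0) and Pbx4 (12.9) were close together. There too NM_009372 had more counts than the Tgif1 transcript used, 1344 against 1191, over fewer bases. Pbx3 lay at 3.23, 3.30 and 4.12, Meis3 at 0.269 to 0.502 and Meis2 at 0.0213 to 0.139.

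Of 9 further genes of the TALE class on the list used here, 8 were near or below the limit of detection. Irx4 and Irx6 were at 0 in all libraries, and Pknox2, Mkx, Irx1, Irx2, Irx3 and Irx5 stayed at or below 0.248 CPM. The 1 that could be tested was Tgif2, the closest relative of Tgif1. It measured 28.3, 19.5 and 29.5 CPM in the knockouts and 17.9, 21.2 and 15.7 CPM in the controls. Control replicate 2, a gene-count library, lay within the knockout range because of the exon-count Asxl2-/- replicate 2. Within each kind of file, Tgif2 was higher in every knockout than in every control. Its log2 fold change was 0.33 (SE 0.12), not past the threshold (edgeR adjusted p = 0.145, unadjusted p = 0.0301 by the same fit).

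Hox genes encode the proteins with which PBX and MEIS bind DNA. Of 39 Hox cluster genes, 18 were tested, 2 rose and 0 fell by the adjusted threshold in edgeR, and 17 were higher at an unadjusted p under 0.05. Over all tested genes, 2.34% and 27.7% passed these thresholds, in either direction. The 18 fitted fold changes were positive, with a median of 1.61. Hoxc6 reached the level of the filter in the 3 Asxl2-/- libraries and in 0 controls, and 4 more did so in the 3 Asxl2-/- libraries and only 1 or 2 controls, so the filter set part of this count and median. Hoxa10 measured 20.9, 13.2 and 16.6 CPM in the knockouts and 4.20, 3.65 and 2.70 CPM in the controls (log2 fold change 2.14, SE 0.24, adjusted p = 0.0196). Hoxb2 measured 12.3, 9.34 and 15.6 CPM against 3.70, 5.11 and 4.77 CPM (1.29, SE 0.20, adjusted p = 0.038). Neither gene's groups overlapped, as for 15.4% of all tested genes with Asxl2-/- above control. Hoxb3 (1.46, adjusted p = 0.0528) and Hoxb6 (1.90, adjusted p = 0.0551) missed the threshold. Leaving out control replicate 2 or 3 or Asxl2-/- replicate 1 or 3 ended both calls, with Hoxa10 at adjusted p of 0.0541, 0.11, 0.0802 and 0.0547 and Hoxb2 at 0.13, 0.127, 0.119 and 0.0772. DESeq2 called 13 Hox genes, where it called 16.5% of all tested genes. Without control replicate 1 edgeR called 9, where it called 9.33% of all tested genes. Hoxb5 is also on the list of stem cell markers.

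Among 13 genes known to respond to Meis1 and Hoxa9, 0 passed the adjusted threshold in edgeR, 5 did in DESeq2, and 4 were higher and 0 lower at an unadjusted p under 0.05. Over all tested genes, DESeq2 called 16.5%, and 27.7% had an unadjusted p under 0.05 in edgeR, in either direction. Without control replicate 1 edgeR called 4 of the list, where it called 9.33% of all tested genes. The genes with the smallest p-values were Etv6 (log2 fold change 0.52, adjusted p = 0.0726), Erg (0.84, adjusted p = 0.0831), Lmo2 (0.34, adjusted p = 0.0895) and Msi2 (0.80, adjusted p = 0.0915), regulators of blood stem cells and progenitors. The median over the list was 0.34. Flt3, a receptor whose gene responds to both factors in leukaemia cells, had a log2 fold change of -0.34 (adjusted p = 0.54).

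MLL, menin and Dot1l belong to complexes that maintain Hox and Meis1 transcription in leukaemia. Of 9 genes listed for these complexes, 0 passed the adjusted threshold in edgeR. DESeq2 called 1, which was lower, where it called 16.5% of all tested genes. At an unadjusted p under 0.05 in edgeR there was 1 higher, Aff4 (0.40, adjusted p = 0.109), and 1 lower, Dot1l (-0.30, adjusted p = 0.113). Over all tested genes, 27.7% reached that p, in either direction. Kmt2a, which encodes MLL, stood at 0.25 (adjusted p = 0.328) and Psip1 at 0.11 (adjusted p = 0.47). The median was 0.02.

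Of 10 partners of Tgif1 in Smad repression, 1 passed the threshold in edgeR, Ski, a Smad corepressor. Over all tested genes, 2.34% did. Ski measured 73.9, 59.1 and 74.7 CPM in the knockouts and 42.7, 41.6 and 32.5 CPM in the controls. The groups did not overlap, as for 15.4% of all tested genes with Asxl2-/- above control. The log2 fold change was 0.74 (SE 0.13, edgeR adjusted p = 0.0499). That value lies at the threshold, and 5 of the 6 fits without a library and 5 of the other settings put it above, at adjusted p up to 0.189. Smad3, the TGF-beta effector, stood at 0.62 (adjusted p = 0.0532), Skil, the relative of Ski, at -0.49 (adjusted p = 0.0847) and Ctbp2 at 0.39 (adjusted p = 0.133). The fold changes of the list were 5 positive and 5 negative, with a median of 0.02.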

How the data were processed

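The deposited values were raw read counts per transcript or per exon, which the authors made on the mm10 build with RefSeq transcripts. The labels' processing notes name STAR, featureCounts and DESeq2 without versions or roles. Libraries were poly(A)-selected and unstranded, from 3 biological replicates per group, and Cuffdiff, which the study used, needs aligned reads and was not run. Each symbol was represented by its transcript with the most exon bases, and exon counts were summed. No exon base of a member was shared with another symbol, but antisense reads cannot be told apart.

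All genes were tested in edgeR 4.0.16 (R 4.3.3; glmQLFit and glmQLFTest, TMM, filterByExpr) with file kind and group (3 residual degrees of freedom). Tests were two-sided, with p-values adjusted by Benjamini-Hochberg and a threshold of 0.05. CPM used TMM-scaled library sizes. Log2 CPM used a prior count of 2, and SDs given after removal of the file kind are somewhat too small. The script was tested on simulated data. Intervals (scipy 1.17.1, Python 3.11.15) and limits of 3 counts cover counting error only. Exact intervals of ratios from exon-count files do not cover all of it, as a spliced read can count in several exons. Replicates of a group differed beyond sampling noise.

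The genes and lists were chosen with earlier results of these data known, and some genes are not reported here. Named genes are the members, Asxl2, list genes past the threshold or among the 4 smallest p-values of a list (for markers, those past it), and the 5 genes most correlated with Meis1. Flt3, Cd79b, Ly6a and Kit, genes at 0 and silent TALE genes were named after their values were seen. Alternatives were DESeq2 1.42.0, limma-voom (limma 3.58.1), other scalings, filters, transcripts and covariates, each file kind alone and leaving out each library.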

Additional observations from a re-analysis of the deposited data

How the results depend on the processing

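Members past the threshold numbered 0 in the edgeR fit reported, 2 with DESeq2 and 0 to 2 when a library was left out. Over all genes the count of 331 became 2329 with DESeq2 (1181 higher, 1148 lower), 161 with library size only and 9 to 1312 without a library. With DESeq2, Meis1 (1.08) and Meis3 (2.96) passed the threshold. Without a library, Meis1 ranged from 0.671 to 1.59, Meis3 from 2.56 to 3.78, Pbx3 from 0.137 to 0.607, Pknox1 from 0.0186 to 0.348 and Tgif1 from 0.11 to 0.48. Except for Meis3, the ends of these ranges are the fits without Asxl2-/- replicate 2 and without control replicate 2. Those fits repeat the comparisons within a kind of file. In gene-count files alone the log2 fold changes were 1.59 (Meis1), 0.136 (Pbx3), 0.474 (Pbx4), 0.347 (Pknox1) and 0.478 (Tgif1). In exon-count files alone they were 0.600 (Pbx3), -0.0403 (Pbx4), 0.016 (Pknox1) and 0.107 (Tgif1). Pbx4 ran from -0.0434 to 0.488 without a library, and Asxl2 turned to -0.0541 with the trend over transcript length removed. Meis1, Pbx2, Pbx3, Pknox1 and Tgif1 were positive in all 18 alternatives run.

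Same-numbered libraries of the groups deviated together with correlations of 0.294, -0.0077 and -0.0028, so the numbers were not taken to pair the libraries. With the file kind removed the values were 0.635, 1 and 0.388, of which the 1 follows from the layout of file kinds over the groups and says nothing about pairing. With the replicate number as a block and file kind (1 residual degree of freedom), 4 members and 5179 genes (36.6% of those tested) were called, the members being Meis1 (1.15), Meis3 (3.04), Pbx3 (0.370) and Tgif1 (0.293). With the block alone, 380 genes and 2 members were called, Meis1 (1.06) and Meis3 (2.80).

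In the other lists, Hox genes called numbered 2 as reported, 13 with DESeq2, 4 with limma-voom, 5 without file kind, 4 with the block alone, 17 with file kind added to it and 0 to 9 without a library. Genes responding to Meis1 and Hoxa9 numbered 0, then 5 with DESeq2, 1 with the block alone, 11 with file kind added to it and 0 to 4 without a library. Genes of the MLL, menin and Dot1l complexes numbered 0, then 1 with DESeq2, 3 with block and file kind and 0 to 1 without a library. Of the Tgif1 partners 1 was called, 3 with DESeq2, 2 with limma-voom, 5 with block and file kind, 0 to 2 without a library, and 0 with median-ratio scaling, library size only, at least 10 counts in every library, the block alone or the length trend removed. Of the further TALE genes 0 were called, and 1 with block and file kind. Meis3 was dropped, so gave no value, with the filter of 10 counts and with the longest exon in place of the sum, and a file kind alone gives no count of calls. The cause of these differences was not tested. Depth limited Meis2 and Meis3, at or near 3 counts in several libraries.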

Other observations

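The 5 tested genes whose log2 CPM, with the file kind removed, followed Meis1 most closely over the 6 libraries were Adcy9 (Pearson r 0.9996), Tanc2 (0.9996), Dixdc1 (0.9995), Clip3 (0.9994) and Mkl2 (0.9993). They were higher in Asxl2-/- cells by 0.53, 1.17, 1.84, 1.81 and 0.60 on the log2 scale, and none passed the adjusted threshold in edgeR. All 5 had an unadjusted p under 0.05, as did 27.7% of all tested genes. Because they were picked for following Meis1 over the same libraries, their p-values are not a separate result. The correlated points share the 2 groups, and removing the file kind ties them further, so the correlations are a description of 6 libraries. Among the members, Tgif1 (r 0.94), Meis3 (0.94) and Pknox1 (0.91) were closest to Meis1 and Pbx3 (0.59) farthest, again with no test.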
